A study of Mus musculus with 2 samples.

Results

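The Hippo-YAP-TEAD genes examined here are 10 genes of the deposited mouse expression table, chosen by their symbols: the coactivator genes Yap1 and Wwtr1, the DNA-binding factor genes Tead1, Tead2, Tead3 and Tead4, and the target genes Ctgf, Cyr61, Amotl2 and Lats2. All 10 were found among the 18888 genes of the table, and all 10 reached at least 1 FPKM (fragments per kilobase of gene, scaled to the mapped reads of the library) in 1 library or both. The study asked what ectopic TERRA, the noncoding RNA transcribed from telomeres, does in mouse embryonic stem cells (mESCs). RNA was sequenced from 46C mESCs, an established mESC line, carrying either the empty PiggyBac vector (PB) or the same transposon vector with polyadenylated TERRA (PB-TERRA), both at passages 21 to 24. Both cultures were kept as mESCs on gelatin, with LIF and serum as the basal medium in the study's methods. Total RNA was taken up in Trizol and turned into libraries with a TruSeq RNA v2 kit for the BGISEQ-500. One library was made per condition, so the PB-TERRA transgene is represented by 1 library set beside 1 vector library, and no difference below has a spread between replicates or a test.

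In the Hippo pathway, the MST kinases with the adaptor SAV1 activate the LATS kinases, and LATS kinases phosphorylate the coactivators YAP and TAZ, which then stay in the cytoplasm or are degraded. Unphosphorylated YAP and TAZ enter the nucleus, bind the TEAD factors, which have the DNA contact that the coactivators lack, and switch on target genes. Among these targets, Amotl2 and Lats2 encode proteins that act back on YAP. Much of this control is on the protein, so mRNA levels report the abundance of the parts and of the target transcripts, not where YAP and TAZ are in the cell.

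Across the 10 genes the libraries lay close to each other. The median log2 ratio of PB-TERRA over PB, computed after adding 0.1 FPKM to each value, was 0.09, against -0.0044 for the 12263 genes past the filter, whose log2 ratios had an SD of 0.31. Of the 10 genes, 7 were higher and 3 were lower in PB-TERRA, where 48.6% of all genes past the filter were higher. No member differed by a log2 ratio of 1 or more in size, as 0.913% of all genes did, and the ratio farthest from 0 was that of Wwtr1 at 0.29. The members that stood higher were the coactivators, Tead1 and all 4 targets, whereas the other TEAD genes stood lower.

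**Figure D1:**
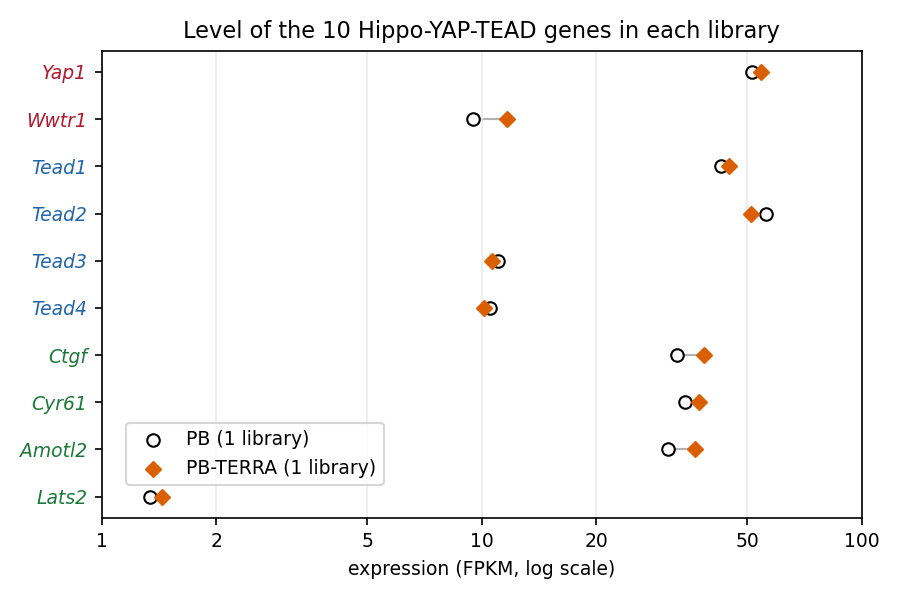
Expression of the 10 Hippo-YAP-TEAD genes in FPKM on a log axis, with an open circle for the PB library and a filled diamond for the PB-TERRA library, 1 library each. The genes spread from 1.34 FPKM for Lats2 to 56.05 FPKM for Tead2 in PB, a far wider spread than the gap between the libraries for any of them.

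Counting error sets the finest difference that a pair of libraries can show. The files hold no reads, but low FPKM values of short genes lie on steps worth 1 read each, and these steps gave depths of 24640000 reads in PB and 24790000 reads in PB-TERRA. From these depths each gene's reads were estimated, and a 95% interval of the ratio was computed by the exact Clopper-Pearson method. Differences between members of a family were taken from these reads. The interval likewise rests on reads without the added 0.1 FPKM, so at low levels the printed ratio can lie off its centre. Such an interval covers counting error only and compares the libraries, not the conditions, and variation between cultures would add to it. For 6 members the interval lay above 0, for 1 below 0 and for 3 it included 0. Over all genes past the filter, 18.1% had an interval above 0 and 17.6% below 0. Depth matters to such counts, since 9 of the 10 members had at least 500 estimated reads in both libraries, and among the 7297 genes with that depth 23.6% had an interval above 0 and 20.3% below 0.

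Longer genes tended to be higher in PB-TERRA. Over the 8496 genes that reached 5 FPKM in each library, length and log2 ratio had a Spearman's rho of 0.25 across genes, and among 10 length classes the median log2 ratio went from -0.06 in the shortest to 0.05 in the longest. Genes are not independent replicates, so rho is given as a description. The length shift of a gene is the median log2 ratio of genes of like length, and its value after taking that shift off is given below where it changes the reading. With the shift off, the interval lay above 0 for 5 members and below 0 for 1, where 22.8% and 20.2% of the genes with at least 500 reads did so.

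**Figure D2:**
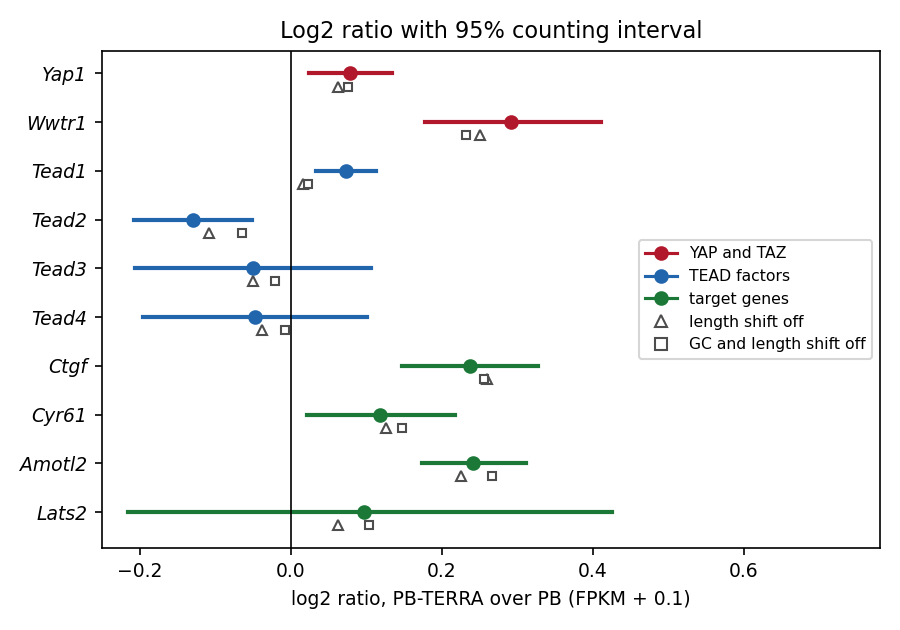
Log2 ratio of PB-TERRA over PB for each gene (points), with its 95% counting interval (bars), coloured by role. Triangles show the ratio with the length shift taken off and squares with the shift of genes of like GC content and length taken off. The bars of Tead3, Tead4 and Lats2 cross 0, and the triangle and square of Tead1 lie near 0.

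Yap1 (Gene ID 22601), which encodes the coactivator YAP, was at 51.48 FPKM in PB and 54.38 FPKM in PB-TERRA. That placed it at percentile 86.3 of the genes past the filter in PB. The log2 ratio was 0.08 (95% interval 0.02 to 0.13), a level 5.63% higher in PB-TERRA. Yap1 is also among the genes shown in the study's heat map of pluripotency-related markers from these very libraries, so its direction here is not independent evidence.

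Wwtr1 (Gene ID 97064), which encodes TAZ, the paralog of YAP, was at 9.51 FPKM in PB and 11.66 FPKM in PB-TERRA. Its log2 ratio of 0.29 (0.18 to 0.41) stood at percentile 93.7 of all genes past the filter, the highest place of the 10 members. It was still 0.25 with the length shift off. Thus both coactivator genes were higher in the PB-TERRA library, and by unequal amounts: the log2 ratio of Yap1 minus that of Wwtr1 was -0.22 (exact conditional interval -0.34 to -0.09). Per length, Yap1 exceeded Wwtr1 by 5.41 times in PB and by 4.66 times in PB-TERRA, so YAP mRNA remained the more abundant of the pair in both libraries. Summed over both genes, the level was 60.99 FPKM in PB and 66.04 FPKM in PB-TERRA, and the log2 ratio of their summed reads was 0.12 (0.07 to 0.17).

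The TEAD genes encode the transcription factors that carry YAP and TAZ to DNA, and TEAD4 is known for its part in setting up the trophectoderm of the mouse embryo. Tead2 (Gene ID 21677) was at 56.05 FPKM in PB and 51.26 FPKM in PB-TERRA. It was the only member with an interval wholly below 0, with a log2 ratio of -0.13 (-0.21 to -0.05), and the ratio was -0.11 with the length shift off and -0.06, with an interval that included 0, after taking off the shift of genes of like GC content and length. Tead1 (Gene ID 21676) was at 42.51 FPKM in PB and 44.73 FPKM in PB-TERRA, a log2 ratio of 0.07 (0.03 to 0.11). Its transcript model of 9573 bases made it the longest of the members, and with the length shift off its log2 ratio was 0.02 (-0.02 to 0.06), so Tead1 did not exceed genes of like length beyond counting error.

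Tead3 (Gene ID 21678) was at 11.01 FPKM in PB and 10.63 FPKM in PB-TERRA. Tead4 (Gene ID 21679) was at 10.50 FPKM in PB and 10.16 FPKM in PB-TERRA. Both genes lay slightly lower in PB-TERRA, with log2 ratios of -0.05 (-0.21 to 0.11) and -0.05 (-0.20 to 0.10), and neither difference was detectable at this depth. In the reference annotation the transcripts of Tead3 and Tead4 share a few stretches of 50 bases, 0.144% and 0.272% of those in each, so few reads of either gene could be assigned to its paralog.

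Within the TEAD family, the log2 ratio of Tead1 minus that of Tead2 was 0.20 (0.11 to 0.29). It was 0.12 (0.04 to 0.21) with the length shift off and 0.09 (-0.0005 to 0.18) with the shift of genes of like GC content and length off, so it depended on these shifts. As measured, Tead1 minus Tead3 was 0.12 (-0.04 to 0.29) and Tead1 minus Tead4 was 0.12 (-0.03 to 0.27), and with the length shift off these were 0.07 and 0.05, again with intervals that included 0. Tead2 made up 46.7% of the summed TEAD FPKM in PB and 43.9% in PB-TERRA, and Tead1 made up 35.4% and 38.3%. Tead3 and Tead4 each held between 8.70% and 9.17%. The summed TEAD level was 120.07 FPKM in PB and 116.78 FPKM in PB-TERRA, whereas the summed reads, in which the long Tead1 weighs more, gave a log2 ratio of 0.02 (-0.0099 to 0.06), so the sign of the family total depended on the scale. TEAD mRNA per YAP and TAZ mRNA, as a ratio of FPKM sums, was 1.97 in PB and 1.77 in PB-TERRA. No interval was computed for this ratio, and it too depends on the scale. On summed reads the log2 ratio of PB-TERRA over PB was 0.02 for the TEAD genes and 0.12 for Yap1 and Wwtr1.

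The 4 target genes were all higher in PB-TERRA. Ctgf (Gene ID 14219), which encodes a secreted matricellular protein of the CCN family and is a standard readout of YAP and TEAD activity, was at 32.68 FPKM in PB and 38.54 FPKM in PB-TERRA. The log2 ratio of Ctgf was 0.24 (0.15 to 0.33), a level 17.9% higher, and 0.26 with the length shift off. In the GENCODE M21 annotation of GRCm38, 23.2% of the exon bases of Ctgf are overlapped by Gm15270 on the opposite strand. Whether reads were counted by strand is not given in the sources used here, and Gm15270 was not analysed, so reads of the antisense gene cannot be told apart from those of Ctgf there.

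Cyr61 (Gene ID 16007), another CCN gene and YAP target, was at 34.32 FPKM in PB and 37.28 FPKM in PB-TERRA. Its log2 ratio was 0.12 (0.02 to 0.22), and a 99% interval of -0.01 to 0.25 included 0. Amotl2 (Gene ID 56332), which encodes an angiomotin-like protein that binds and restrains YAP, was at 30.83 FPKM in PB and 36.48 FPKM in PB-TERRA. The ratio of Amotl2 was close to that of Ctgf, at 0.24 (0.17 to 0.31), and remained at 0.23 with the length shift off. Ctgf and Amotl2 differed by -0.0049 (-0.12 to 0.11), and Cyr61 minus Amotl2 was -0.12 (-0.24 to -0.0024), which became -0.10 (-0.22 to 0.02) with the length shift off. Ctgf minus Cyr61 was 0.12 (-0.02 to 0.25), and 0.13 (0.0003 to 0.27) with that shift off, so neither difference was settled at this depth.

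Lats2 (Gene ID 50523), which encodes a kinase that phosphorylates YAP and TAZ, was at 1.34 FPKM in PB and 1.44 FPKM in PB-TERRA, the lowest level of the members in both libraries. With 159 and 172 estimated reads, its log2 ratio was 0.10 (-0.21 to 0.42), or 0.06 with the length shift off, and a difference was not detectable at this depth. The annotation also places Gm49361 on the same strand over 42.4% of the Lats2 exon bases, and 41.2% of the 50-base stretches of Lats2 transcripts also occur in Gm49361, so the Lats2 value is uncertain. No pair of targets that included Lats2 differed beyond the interval.

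By level, per length, the members formed 3 tiers in both libraries: Tead2, Yap1, Tead1 and the targets Cyr61, Ctgf and Amotl2 above 30 FPKM, then Tead3, Tead4 and Wwtr1 near 10 FPKM, and Lats2 far below. The order in PB was Tead2, Yap1, Tead1, Cyr61, Ctgf, Amotl2, Tead3, Tead4, Wwtr1 and Lats2. In PB-TERRA, Yap1 (counting interval 52.9 to 55.8 FPKM) stood above Tead2 (49.3 to 53.3 FPKM) with overlapping intervals, while in PB Tead2 (54.0 to 58.2 FPKM) stood above Yap1 (50.1 to 52.9 FPKM) without overlap. Wwtr1 moved past Tead3 and Tead4 in PB-TERRA, where its interval (11.0 to 12.3 FPKM) overlapped that of Tead3 (9.83 to 11.5 FPKM) but not that of Tead4 (9.44 to 10.9 FPKM). Neighbours among Cyr61, Ctgf and Amotl2 overlapped in each library, as did Tead3 and Tead4, and in PB also Tead4 and Wwtr1.

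**Figure D3:**
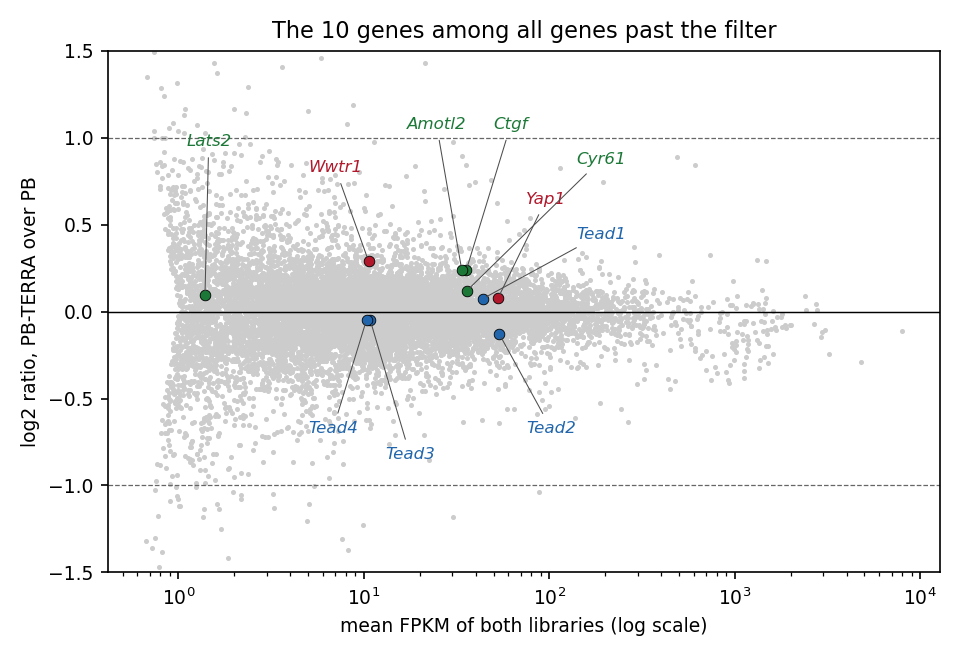
Log2 ratio of PB-TERRA over PB against the mean FPKM of both libraries on a log axis, for all genes past the filter (grey) and the 10 Hippo-YAP-TEAD genes (coloured by role and named), with dashed lines at -1 and 1. All 10 lie inside the dashed lines and inside the grey cloud, and 50 genes beyond 1.5 on either side are not drawn.

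The start regions of the target and coactivator genes are shown because TEAD factors act through a short DNA motif, GGAATG, which reads CATTCC on the other strand. RefSeq sequences of GRCm38.p6, from 250 bases before to 50 bases after each annotated start, were at hand for 7 of the members, namely Yap1, Wwtr1, Tead2, Tead3, Cyr61 (listed there as Ccn1), Amotl2 and Lats2. Those of Yap1 (chr9:8004547-8004846, minus strand), Wwtr1 (chr3:57575861-57576160, minus strand), Cyr61 (chr3:145649936-145650235, minus strand) and Amotl2 (chr9:102717554-102717853, plus strand), which had intervals above 0, are printed 5′ to 3′ with the motif in capitals:
Yap1: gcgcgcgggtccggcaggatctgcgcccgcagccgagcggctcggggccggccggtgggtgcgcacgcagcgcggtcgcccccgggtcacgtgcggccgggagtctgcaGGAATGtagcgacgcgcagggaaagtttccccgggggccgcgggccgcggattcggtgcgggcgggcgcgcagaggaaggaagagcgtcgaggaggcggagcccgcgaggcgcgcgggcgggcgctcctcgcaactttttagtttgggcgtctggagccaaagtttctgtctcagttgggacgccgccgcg
Wwtr1: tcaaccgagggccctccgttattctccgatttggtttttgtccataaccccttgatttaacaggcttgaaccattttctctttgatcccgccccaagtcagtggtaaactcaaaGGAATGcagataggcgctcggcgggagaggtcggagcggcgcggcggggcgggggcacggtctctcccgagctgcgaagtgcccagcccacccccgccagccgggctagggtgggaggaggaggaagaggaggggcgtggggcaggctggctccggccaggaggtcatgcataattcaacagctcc
Cyr61: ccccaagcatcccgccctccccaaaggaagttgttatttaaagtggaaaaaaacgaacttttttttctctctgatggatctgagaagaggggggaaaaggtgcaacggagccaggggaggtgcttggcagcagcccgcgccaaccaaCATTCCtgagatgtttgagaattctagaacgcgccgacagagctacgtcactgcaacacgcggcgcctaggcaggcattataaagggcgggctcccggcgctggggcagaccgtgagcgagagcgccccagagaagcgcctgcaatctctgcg
Amotl2: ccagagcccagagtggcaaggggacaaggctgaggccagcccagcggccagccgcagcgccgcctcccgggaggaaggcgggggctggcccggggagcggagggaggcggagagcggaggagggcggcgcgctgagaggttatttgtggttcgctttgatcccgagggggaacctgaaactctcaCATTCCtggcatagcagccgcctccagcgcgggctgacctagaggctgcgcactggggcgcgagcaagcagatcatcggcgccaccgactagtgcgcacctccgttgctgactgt

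Counted from the annotated start as position 0, the motif began at -141 in Yap1, at -136 in the printed Wwtr1 window, at -103 in Cyr61 and at -65 in Amotl2. Wwtr1 has another annotated start, from which the same motif lay at -170. Lats2 held it at 4 in 1 window, within the transcribed part, and its other window held none. Of the Tead3 windows, 1 held 3 copies, another held 1 and the last held none, whereas the Tead2 window held none. At least 1 window of a gene held the motif for 6 of the 7 members (85.7%), compared with 14.2% of the 9473 genes past the filter that have a window, and with 14.7% of all 32851 windows. Cyr61, Amotl2 and Lats2 were chosen as known YAP targets, so the share among the members partly reflects that choice and is not a test. A match is a run of 6 letters, read on both strands, and not evidence of TEAD binding in these cells. The motif was present in start regions of genes that lay higher and of genes that lay lower or near 0, such as Tead3.

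The wider pathway was described through lists of its parts. Of 14 core kinases and adaptors other than Lats2, all past the filter, 6 were higher and 8 lower, with a median log2 ratio of -0.01. Intervals above 0 were found for 3 of them and below 0 for none, against the 18.1% and 17.6% of all genes. Taok1, a kinase that acts upstream of MST, was at 12.68 FPKM in PB and 15.16 FPKM in PB-TERRA, with a log2 ratio of 0.26 (0.20 to 0.32), which was 0.18 with the length shift off and 0.15 with the shift by GC content and length off. The most abundant of the list, the MAP kinase kinase kinase kinase gene Map4k4, was at 47.89 and 48.67 FPKM, and the lowest ratio was that of Taok3, at -0.09 (-0.28 to 0.10). Lats1, the paralog of Lats2, was at 5.37 FPKM in PB and 5.23 FPKM in PB-TERRA, with a log2 ratio of -0.04 (-0.17 to 0.09), or -0.08 with the length shift off.

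Some products of the junction, polarity and angiomotin genes hold YAP or the LATS kinases at cell contacts. Of 13 such genes listed, 11 passed the filter, 8 were higher and 3 lower, and the median log2 ratio was 0.10. Intervals lay above 0 for 6 of these and below 0 for none, against 18.1% and 17.6% of all genes. Of genes with at least 500 reads in both libraries, 23.6% and 20.3% lay above and below 0. With the length shift off the list had 4 intervals above and 2 below 0, and its median was 0.07. With that shift off, 22.8% and 20.2% of genes with at least 500 reads lay above and below 0. Amotl2, a member, had the highest ratio of the list, and Limd1, which encodes a LIM protein that binds LATS, had the lowest, at -0.12 (-0.27 to 0.03). Ajuba, another LIM protein gene, was at 67.87 FPKM in PB and 71.64 FPKM in PB-TERRA. Of the STRIPAK phosphatase complex, which removes phosphate from the MST kinases, all 10 genes passed, 6 higher and 4 lower with a median of 0.03, and Mob4 had the highest log2 ratio, at 0.16 (0.03 to 0.30). The catalytic subunit gene Ppp2ca was at 208.72 FPKM in PB and 216.17 FPKM in PB-TERRA.

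Vestigial-like proteins compete with YAP for TEAD, and 2 of their 4 genes passed the filter. Vgll3 was at 2.33 FPKM in PB and 3.63 FPKM in PB-TERRA, a log2 ratio of 0.62 (0.37 to 0.91), above the ratio of every member. Vgll4 was at 3.90 FPKM and 3.34 FPKM, with a log2 ratio of -0.22 (-0.51 to 0.06).

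A signature of 22 YAP and TAZ target genes, in common use for tumours, holds the 4 targets above. Of its 18 other genes, 15 passed the filter, 12 were higher and 3 lower, and the median log2 ratio was 0.10. Intervals lay above 0 for 7 and below 0 for 1, where 18.1% and 17.6% of all genes past the filter did so. With the length shift off the counts were 6 and 2, with a median of 0.07. With that shift off, 22.8% and 20.2% of genes with at least 500 reads in both libraries lay so, a depth that some of the 15 lack. Ptpn14, at 0.15 (0.09 to 0.21), is 1 of the 7 and also 1 of the 6 in the junction list. Over all 22 genes, 19 passed and the median was 0.12. Tgfb2, a secreted growth factor gene, had the highest ratio, 1.71 FPKM in PB and 2.32 FPKM in PB-TERRA, at 0.42 (0.18 to 0.70). A few further genes, named after their values were seen, lay near it: the receptor kinase gene Axl at 0.41 (0.23 to 0.61), the tissue factor gene F3 at 0.36 (0.14 to 0.58) and the ferlin gene Myof at 0.34 (0.25 to 0.45).

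The most abundant gene of the signature went the other way. Igfbp3, which encodes a binding protein of insulin-like growth factors, was at 86.56 FPKM in PB and 70.64 FPKM in PB-TERRA, a log2 ratio of -0.29 (-0.35 to -0.23). Ankrd1, an often used YAP target, had the lowest ratio, at -0.42 (-1.12 to 0.20), from 1.20 FPKM in PB and 0.87 FPKM in PB-TERRA, and 49 and 36 estimated reads could not show a difference. Ankrd1 passed the filter only through PB. The signature was therefore mixed in direction, with more genes higher than lower.

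Of 6 CCN genes, 3 passed the filter, Ctgf, Cyr61 and Wisp1. Wisp1 was at 0.76 FPKM in PB and 1.32 FPKM in PB-TERRA, with a log2 ratio of 0.72 (0.42 to 1.18), but it passed only through the library in which it was high, so it adds nothing as a count beside Ctgf and Cyr61.

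**Figure D4:**
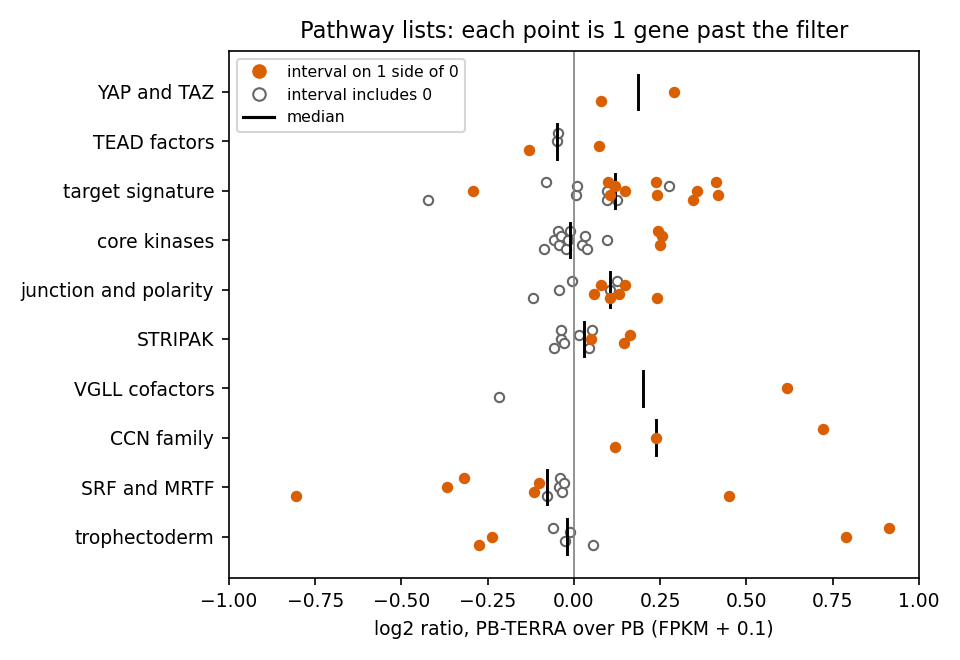
Log2 ratio of PB-TERRA over PB for the genes past the filter in 10 lists, 1 point per gene and jittered vertically, filled where the 95% counting interval excludes 0, with a black bar at the median of each list. Among the 10 lists drawn, which leave out the mESC, fibroblast, endoderm and neural markers, the SRF and MRTF median is the lowest, at -0.08. The CCN list has only 3 points, and its highest, Wisp1, passed the filter only through PB-TERRA. Amotl2, Lats2, Ctgf, Cyr61 and Ptpn14 recur where lists share them.

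Markers of mESCs and of other cell types were also compared between the libraries. All 10 mESC markers passed the filter. In PB-TERRA 5 of them stood higher and 5 lower, with 4 intervals above and 4 below 0, where 23.6% and 20.3% of genes with at least 500 reads lay so. The median log2 ratio was 0.01, or 0.04 with the length shift off, at a summed level of 3355.56 FPKM in PB and 3215.96 FPKM in PB-TERRA. Dppa5a, at 1162.50 and 1039.92 FPKM, made up most of the gap between these sums. All 12 primitive endoderm markers, taken without the filter, were higher in PB-TERRA, at a summed 156.68 FPKM in PB and 172.23 FPKM in PB-TERRA. Without the filter 9 of the 12 had an interval above 0, where 12.8% of all genes of the table did. Of the 10 past the filter it was 8, against 18.1% of all genes past it. With the length shift off it was 6, where 22.8% of genes with at least 500 reads in both libraries did so. Each count included Pdgfra, which passed only through PB-TERRA. Gata6, which defines that lineage, was at 1.22 FPKM in PB and 2.26 FPKM in PB-TERRA, a log2 ratio of 0.84 (0.53 to 1.27), Pdgfra had a ratio of 0.85 (0.58 to 1.38), and the most abundant, Sparc, was at 83.46 and 86.45 FPKM. Of 10 fibroblast markers, 5 were higher and 5 lower without the filter, and all 10 summed to 20.58 FPKM in PB and 24.40 FPKM in PB-TERRA. Only 4 passed the filter, and 2 of these, Col1a2 at 0.53 (0.23 to 0.93) among them, passed only through PB-TERRA. Col1a1 had a log2 ratio of 0.60 (0.49 to 0.71), from 7.99 FPKM in PB and 12.14 FPKM in PB-TERRA, and Thy1 of -0.13 (-0.34 to 0.09). The 10 neural markers summed to 98.57 FPKM in PB and 84.17 FPKM in PB-TERRA, and without the filter 5 were higher, 4 lower and 1 equal, with a median log2 ratio of 0.06. Of the 4 that passed, 1 was higher and 3 were lower, with a median of -0.25, so the direction of the list turned with the filter. Among these Sox1 had the highest ratio at 0.52 (0.18 to 0.93), Nes the lowest at -0.38 (-0.45 to -0.32) and Tubb3 the highest level at 57.66 and 51.48 FPKM, while Neurog2 and Olig2 stood at the table's floor of 0.01 FPKM in PB. The part of such cells in the higher values of Wwtr1, Ctgf, Cyr61 and Amotl2 was not tested, and in bulk RNA more cells of a type cannot be told apart from more RNA per cell.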

How the data were processed

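Both libraries of the series, PB and PB-TERRA, entered every comparison. A single table of 18888 genes was deposited by the authors, with gene length and an expression value per library, read here from the values as FPKM, rounded to 2 decimals with a floor of 0.01, because its header names no unit. The submitters' processing notes name HISAT, Cufflinks and the mm9 build, without roles or versions. The authors' log2 fold change, p-value and adjusted p-value columns hold their PossionDis comparison and were not used.

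The main measure was the log2 ratio of FPKM + 0.1, over genes with at least 1 FPKM in 1 library or both. Reads were estimated as FPKM times length less 112 bases times depth, with depth and offset found from 1876 low values of short genes, of which 83.2% lay within 0.15 of a whole read. The estimated depths were 24640000 and 24790000 reads. Exact 95% intervals cover counting error only. The computations were tested on simulated data.

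The members and lists were chosen with earlier results of these data known. All members are named, and from each list the most abundant gene, those with the highest and lowest log2 ratio past the filter, and any past the filter whose log2 ratio was 0.5 or more in size. Lats1, Axl, F3, Myof and genes named beyond that rule were named after their values were seen, and some genes that the rule names are not reported here. Alternatives were other pseudocounts (0.01 and 1 FPKM), scalings, filters, a 99% interval and the length shift (50 bins), and, chosen after seeing the data, a shift by GC content and length (10 by 10 bins), with GC content of GENCODE M21 on GRCm38 found for 94.3% of the genes past the filter. Overlaps and sequences come from GRCm38, not the authors' build, so no coordinates were joined to the table, and the planned protein comparison was not made. The scripts ran under Python 3.11.15 with scipy 1.17.1, pandas 2.3.3 and numpy 2.4.6, and matplotlib 3.10.9 drew the figures.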

Additional observations from a re-analysis of the deposited data

How the results depend on the processing

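With 1 library per condition, the spread between cultures is unknown, and the counting intervals are a lower limit on the error. Of 70 member values under other pseudocounts, scalings, the length shift, the shift by GC content and length, and estimated reads, none changed sign, and 68 stayed within the gene's counting interval. The exceptions were both of Tead1, from 0.07 to 0.02 with the length shift off and to 0.02 with the shift by GC content and length off. The latter shift, chosen after seeing the data, took the number of members with an interval below 0 from 1 to 0, because the interval of Tead2 then included 0. Intervals above 0 numbered 5 in place of 6 with 99% intervals, without Cyr61, and 5 with either shift off, without Tead1. Among 13 differences between members of a family, those of Tead1 and Tead2 and of Cyr61 and Amotl2 lost their call with the shift by GC content and length off, and the latter also with the length shift off, while Ctgf and Cyr61 gained one with the length shift off. These shifts of pairs were chosen after seeing the data. Without a filter, the median log2 ratio of the fibroblast markers was 0.0418 in place of 0.34 and that of the neural markers 0.0628 in place of -0.25, since low genes then entered. The fibroblast value of 0.34 rests on 4 genes, of which 2 passed the filter only through PB-TERRA. Depth limits Lats2, Tead3 and Tead4 most.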

Other observations

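Genes of SRF and its MRTF cofactors, which respond to actin and share some targets with YAP, lay mostly the other way from the YAP targets. Of 12 such genes, 11 passed the filter, 1 was higher and 10 were lower in PB-TERRA, 5 with an interval below 0, where 17.6% of all genes past the filter had one, and the median log2 ratio was -0.08. Cnn1, which encodes the smooth muscle protein calponin, was at 8.73 FPKM in PB and 4.95 FPKM in PB-TERRA, a log2 ratio of -0.81 (-1.06 to -0.58). Acta2, the smooth muscle actin gene, was the exception, at 9.03 FPKM in PB and 12.38 FPKM in PB-TERRA, a log2 ratio of 0.45 (0.30 to 0.62). The most abundant gene, the tropomyosin gene Tpm1, was at 230.12 and 223.66 FPKM. Of 12 serum-induced immediate early genes, 9 passed, 4 higher and 5 lower, with a median of -0.04, and 1 had an interval below 0, Ier3 at -0.38 (-0.64 to -0.14). Ier2 was the most abundant of these, at 84.19 and 80.23 FPKM, and Atf3 had the highest ratio at 0.21 (-0.19 to 0.64).

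Trophectoderm genes, some of which depend on TEAD4 in the embryo, were split. Of 10, 8 passed the filter, 3 higher and 5 lower, with a median of -0.02 that was 0.02 with the length shift off. Cdx2 was at 1.19 FPKM in PB and 2.13 FPKM in PB-TERRA, a log2 ratio of 0.79 (0.36 to 1.31), and Hand1 at 1.36 and 2.65 FPKM, a log2 ratio of 0.91 (0.49 to 1.43). Eomes was at 6.13 FPKM in PB and 5.05 FPKM in PB-TERRA, a log2 ratio of -0.27 (-0.46 to -0.10), and the keratin gene Krt8, the most abundant, was at 142.49 and 141.42 FPKM. Among the mESC markers, Sall4 had the highest ratio at 0.17 (0.12 to 0.21) and Tdgf1 the lowest at -0.18 (-0.21 to -0.14).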
